A study of Mus musculus with 16 samples.

Results

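Hspd1, Hspe1, Cct2, Cct4, Hspa4 and Phb encode protein-folding and mitochondrial scaffold proteins, and their transcripts were followed in ventricles of mouse embryos at E11.5. The 6 genes were chosen by name, as the rows of the expression table that carry these symbols, and make up 6 of the 5921 rows used. All 6 passed the filter on low values, a mean of at least 1 TPM over the 16 libraries (TPM is a transcript level scaled for transcript length and library total), which kept 2620 genes for testing. Only Cct2 and Cct4 are subunits of the cytosolic chaperonin and only Hspd1 and Hspe1 of the mitochondrial one, while Hspa4 belongs to the Hsp110 family and Phb to the prohibitins.

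RNA was sequenced from 4 groups of 4 libraries. In the line called exon 2-3, exons 2 and 3 of Atf4 were flanked by loxP sites, and in the line called exon 2, exon 2 alone was. In each line, ventricles with a cardiomyocyte-specific conditional knockout (cKO) made by Xmlc2-Cre were compared with controls of the same line. Atf4 encodes a transcription factor of the integrated stress response, and the study asked what it does in heart development. Xmlc2-Cre acts in cardiomyocytes, so the other cells of the ventricle would keep the gene. The genotype label reads C57BL/6 WT on every sample, cKO included, and the labels do not say whether controls carried a floxed allele or Cre. Batch and line coincide in the labels, batch 1 being exon 2-3 and batch 2 being exon 2, and their effects cannot be told apart. Nothing in the labels says which embryos shared a litter. In this bulk tissue, fewer cells of a type and less RNA per cell cannot be told apart.

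The labelled tissue was checked by marker genes. The cardiomyocyte genes Tnnt2 and Myl7 averaged 4022 and 3285 TPM. The extraction text names cultured cortical neurons, but of 5 neuronal markers measured, 4 averaged 0.349 to 0.459 TPM and 1, Dlg4, averaged 11.1 TPM. Within groups, log2 levels of any 2 libraries had a Pearson correlation of 0.982 to 0.992. Summed erythroid markers ranged from 1512 to 11293 TPM within the exon 2-3 cKO group and from 2018 to 4707 TPM over the other 12 libraries. The TPM of Atf4 was not analysed here, so every direction rests on the labels.

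Chaperonins are double-ring machines that enclose an unfolded protein and let it fold in their cavity. Hsp60, the product of Hspd1, forms the ring in the mitochondrial matrix, and Hsp10, the product of Hspe1, is the lid that closes it. CCT (also called TRiC) does this work in the cytosol, with actin and tubulin as its best known clients, and Cct2 and Cct4 encode its beta and delta subunits. Hspa4 encodes a nucleotide exchange factor for Hsp70, the chaperone that often acts before CCT on the same protein. Phb encodes prohibitin, which forms ring assemblies with its partner Phb2 in the mitochondrial inner membrane. Heart muscle depends on both compartments, for its dense mitochondria and for its actin filaments.

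Hspd1 and Hspe1 lie head to head on chromosome 1 (GRCm38.p6), Hspd1 on the minus strand at 55077833 to 55088243 and Hspe1 on the plus strand at 55088148 to 55091317. They overlap over 96 bases. RefSeq windows of 250 bases before to 50 after a start site were matched for 5 of the 6 genes, Cct4 being the other. Stretches of 3 windows are shown because each holds a core of the heat shock element, the site bound by heat shock factors. Capitals mark matches to TTCNNGAA or GAANNTTC, which were searched on both strands and may overlap.
Hspe1 (chr1:55088028-55088117, plus strand): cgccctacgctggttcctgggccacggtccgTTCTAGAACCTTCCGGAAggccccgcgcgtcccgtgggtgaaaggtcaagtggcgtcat
Phb (chr11:95666796-95666855, plus strand): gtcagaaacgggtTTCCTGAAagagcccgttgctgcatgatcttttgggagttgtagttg
Cct2 (chr10:117063377-117063436, minus strand): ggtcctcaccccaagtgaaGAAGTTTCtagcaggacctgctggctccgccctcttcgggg

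The Hspe1 stretch lies between the Hspe1 start site at 55088148 and an Hspd1 start site at 55087932, 216 bases away. Its capitals form an unbroken array, TTCNNGAANNTTCNNGAA, which begins at position -89 from the Hspe1 start and at position -144 from that Hspd1 start. That array was found in 5 of the 32851 windows of 300 bases in the reference (0.0152%), among them that of Hspe1 and that of the Hspd1 start at 55087932. The window of the other Hspd1 start, 55088243, held neither core, and from that start the array lies inside the gene. Phb held 1 core, at position -148 from its start site. Cct2 has windows at both of its RefSeq start sites: the one at 117063375 held 1 core, at position -42, and the one at 117063852, where the gene's row begins, held none. TTCNNGAA alone occurred in 8.52% of windows and GAANNTTC in 7.86%. Neither core was found in the Hspa4 window. TGATGNAA, a core of composite ATF4 sites, was in 3.97% of windows and in none of those of these genes, which says only that these letters are absent there.

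Some of the values carry a limit from near-identical copies elsewhere in the genome, because how the authors assigned reads that match several places is not stated in the sources used here. Over at least 300 aligned bases at 90% identity or more, GENCODE transcripts of other genes matched Hspd1 (5 genes), Hspe1 (4) and Phb (6), and none matched Hspa4, Cct2 or Cct4. The processed pseudogene Hspd1-ps3 (chromosome 11, 41498677 to 41500911) matched Hspd1 at 99.0% over 1722 bases. It was listed at 24.0 to 44.8 TPM over the 16 libraries. It averaged 6.76% of the Hspd1 level in exon 2-3 controls and 7.08% in exon 2-3 cKO. In the exon 2 line it averaged 5.10% in controls and 4.74% in cKO. The pseudogene was higher in exon 2-3 than in exon 2 controls, with overlapping ranges (log2 fold change 0.49, limma adjusted p 0.00507). Its part in the values of Hspd1 was not tested. The levels of Hspd1, Hspe1 and Phb are therefore uncertain. For Hspe1 and Phb the size cannot be given, since none of the 4 copies of Hspe1 and 1 of the 6 of Phb were among the rows used. The counting is not stated to use strand, so reads from the 96 bases that Hspd1 and Hspe1 share cannot be told apart either.

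In level, Hspd1 was the highest of the 6 genes in all 4 groups and Hspa4 the lowest. In the exon 2-3 controls the mean TPM was 624 for Hspd1, 375 for Hspe1, 254 for Cct2, 240 for Cct4, 204 for Phb and 103 for Hspa4. Cct2 and Cct4 overlapped between libraries there, and every other pair of neighbours in that order was separate. In the exon 2 controls Cct2 (279 TPM) came before Hspe1 (252 TPM), with overlapping ranges, and Hspe1 also overlapped Cct4 (206 TPM). The plot of levels by library shows the same order in the cKO groups of each line.

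**Figure D1:**
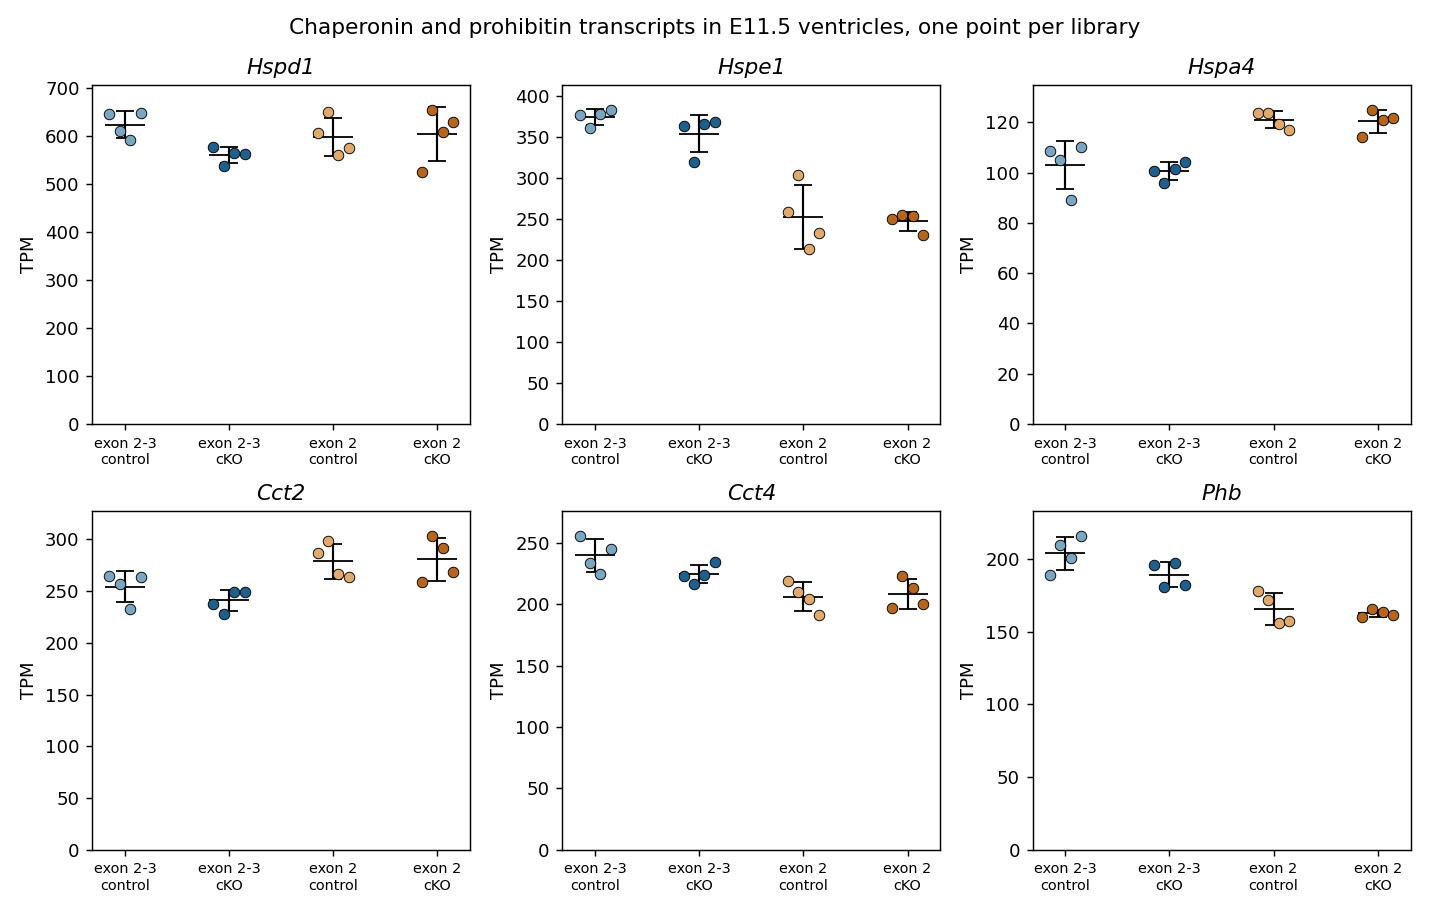
TPM (vertical axes, from 0) of the 6 genes in each of the 4 groups, with 1 point per library and the mean and SD as bars. Hspd1 lies between 526 and 654 TPM in every library, and Hspe1 is higher in all 8 exon 2-3 libraries than in any exon 2 library.

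The first comparison asked whether the deletion of exons 2 and 3 changed these genes. None of the 6 passed the threshold, an adjusted p under 0.05 with limma, against 6.72% of all genes tested. At an unadjusted p under 0.05 there was 1 of 6, Hspd1, against 21.1% of all genes, or 7.98% with the lower level in cKO. All 6 fold changes lay below 0, between -0.15 and -0.03 on the log2 scale, and 41.5% of all genes did. The 6 genes share their libraries and several varied together within groups, so these are not 6 independent observations. The median of the 6 fold changes was -0.09, and the median of all genes was 0.03.

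The ring subunit Hspd1 had the largest difference. Its level was 645, 610, 592 and 647 TPM in the exon 2-3 control libraries and 577, 538, 564 and 562 TPM in the cKO libraries. Every cKO library lay below every control library, as did 5.31% of all genes (14.5% were separate in either direction). The log2 fold change was -0.15 (SE 0.049, 95% confidence interval -0.26 to -0.05, limma adjusted p 0.0957), or 10.1% less. After each library was centred on the median of the genes tested, the difference passed the threshold (-0.20, limma adjusted p 0.0216). It also passed without control replicate 3, the lowest control library (-0.18, limma adjusted p 0.0490), but in none of the other 7 fits with 1 library left out. Whether Hspd1 passed therefore depended on the scaling and on 1 control library. These are not independent: the median log2 level of the genes tested was 3.83 in control replicate 3 and 3.98 to 4.03 in the other exon 2-3 controls.

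Its lid, Hspe1, was measured at 378, 361, 379 and 383 TPM in exon 2-3 controls and at 364, 320, 366 and 368 TPM in cKO. The groups overlapped, with cKO replicate 2 apart from the other 3 cKO libraries. The log2 fold change of -0.08 (SE 0.055, limma adjusted p 0.421) became -0.04 without that library. The pseudogene Hspd1-ps3 had a mean of 42.2 ± 3.59 TPM in controls against 39.6 ± 2.23 TPM in cKO (SD, n = 4 each), with a log2 fold change of -0.09 (limma adjusted p 0.539).

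Prohibitin transcripts, the other mitochondrial product here, were at 189, 210, 201 and 216 TPM in exon 2-3 controls and at 196, 181, 197 and 182 TPM in cKO. The ranges overlapped through control replicate 1. The log2 fold change of Phb was -0.11 (SE 0.056, 95% confidence interval -0.23 to 0.02, limma adjusted p 0.312).

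Neither cytosolic subunit passed the test in the values as deposited. Cct4 was at 256, 234, 224 and 245 TPM in exon 2-3 controls and at 223, 217, 223 and 234 TPM in cKO. The groups overlapped, and the log2 fold change of -0.09 (SE 0.052, limma adjusted p 0.344) passed only after median centring (-0.14, limma adjusted p 0.0487). Cct2 was at 264, 257, 233 and 264 TPM in controls and at 237, 228, 249 and 249 TPM in cKO, with control replicate 3 inside the cKO range and a log2 fold change of -0.08 (limma adjusted p 0.472).

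Hspa4, the Hsp70 exchange factor, was at 109, 105, 89.2 and 110 TPM in controls and at 101, 95.7, 101 and 104 TPM in cKO. Control replicate 3 was the lowest of all 8 libraries. The log2 fold change was -0.03 (SE 0.069, 95% confidence interval -0.19 to 0.12, limma adjusted p 0.840), and it was -0.10 without that library.

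Cell type markers moved in the same comparison. Summed TPM of 5 epicardial and mesenchymal markers was 256 to 291 in the exon 2-3 controls and 395 to 432 in the cKO, and 4 of the 5 (Tcf21, Dcn, Col1a1 and Col3a1) rose at an adjusted p under 0.05. The 6 cardiomyocyte markers summed to between 16997 and 18467 TPM in controls and between 16492 and 17479 TPM in cKO, and 1 of them, Hand1, fell. No erythroid, endothelial or leukocyte marker passed. The part of these markers in the values of the 6 genes was not tested.

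**Figure D2:**
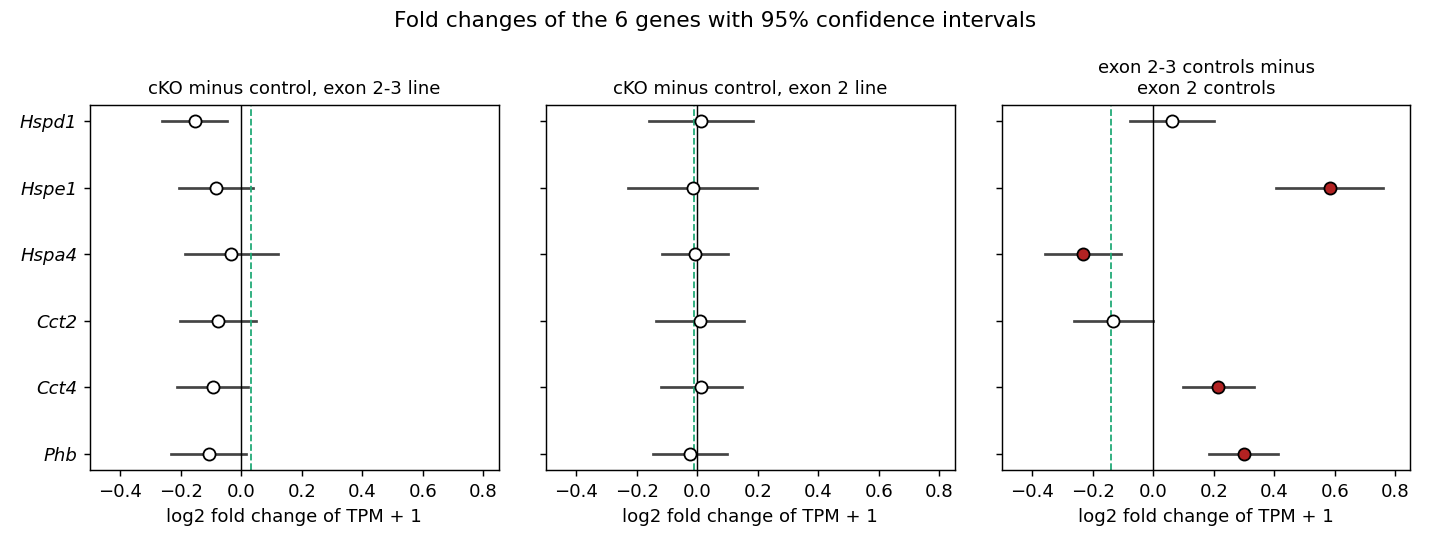
Log2 fold change of TPM + 1 (horizontal axis) of each of the 6 genes in the 2 knockout comparisons and between the control groups, with 95% confidence intervals. Filled points passed a limma adjusted p of 0.05, the dashed line is the median of all 2620 genes, and only the control comparison has filled points, for Hspe1, Hspa4, Cct4 and Phb.

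Deletion of exon 2 alone gave differences close to 0. None of the 6 genes passed the adjusted threshold with limma, against 0.0763% of all genes, and none had an unadjusted p under 0.05, against 3.21%. Fold changes were above 0 for 3 and below 0 for 3, against 56.8% of all genes below 0. They ran from -0.02 to 0.01 on the log2 scale, and all 6 adjusted p-values were 0.999. These directions were not stable: each of the 6 changed sign in at least 1 fit with 1 library left out.

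Hspd1 was at 606, 651, 560 and 574 TPM in the exon 2 controls and at 526, 654, 609 and 629 TPM in the cKO. The cKO libraries reached both below and above the controls. The 95% confidence interval of its log2 fold change ran from -0.16 to 0.19. Hspe1 was at 259, 304, 213 and 233 TPM in controls and at 250, 256, 254 and 231 TPM in cKO (interval -0.23 to 0.20), and its controls spread more widely than its cKO libraries.

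Phb was at 178, 172, 156 and 157 TPM in controls and at 160, 165, 163 and 162 TPM in cKO, with the cKO libraries closer together. Cct2 was at 286, 298, 266 and 263 TPM in controls and at 259, 303, 292 and 268 TPM in cKO. Cct4 ranged from 191 to 219 TPM in controls and from 197 to 223 TPM in cKO. Hspa4, the least variable here with its interval from -0.12 to 0.10, ranged from 117 to 124 TPM and from 114 to 125 TPM. In all 6 genes the groups overlapped, while 1.83% of all genes were separate. No marker of the 6 cell types checked passed the threshold in this line.

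Whether the knockout effect differed between the lines was tested by the interaction term over all 16 libraries. None of the 6 genes passed with limma, against 2.37% of all genes, and none had an unadjusted p under 0.05, against 15%. All 6 terms were below 0, as were 40.3% of all genes, and the 6 terms share their libraries and are not independent. For Hspd1 the difference was -0.17 (SE 0.093, 95% confidence interval -0.37 to 0.03, limma adjusted p 0.440). For Cct4 it was -0.11 (interval -0.28 to 0.06), for Cct2 -0.09 (-0.27 to 0.10), for Phb -0.08 (-0.25 to 0.08), for Hspe1 -0.07 (-0.32 to 0.18) and for Hspa4 -0.02 (-0.20 to 0.15). The fold changes of Hspd1 in the 2 lines were thus not shown to differ.

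Other chaperone genes were described from lists of 166 genes chosen by function, of which 29 were among the rows used and 26 were tested, the 6 genes included. Of the 20 others, 1 was higher and none lower in the exon 2-3 cKO at an adjusted p under 0.05, against 4.16% of all genes higher and 2.56% lower. Of the 20, 10 lay above 0 and 10 below, and their median was -0.00096. In the exon 2 line none passed, 5 lay above 0 and 15 below, and the median was -0.04. The third CCT gene held, Cct6b, was at 0.14 TPM or less in every library and was not tested.

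The gene that passed was Nudcd2, which encodes a protein that works with Hsp90. It was at 62.9, 65.4, 63.7 and 67.9 TPM in exon 2-3 controls and at 77.3, 75.7, 79.3 and 72.6 TPM in cKO, with no overlap, as in 9.24% of all genes with the higher level in cKO. Its log2 fold change was 0.23 (SE 0.049, limma adjusted p 0.0263). It passed when control replicate 3, control replicate 4 or cKO replicate 4 was dropped, and did not pass when any other library was dropped (adjusted p 0.0311 to 0.0889 over the 8 fits). It did not pass after median centring (adjusted p 0.0631) or without an intensity trend (0.0518). In the exon 2 line Nudcd2 had means of 54.5 ± 3.04 TPM in controls against 54.9 ± 6.18 TPM in cKO (SD, n = 4 each), and the difference between lines had a limma adjusted p of 0.286.

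Next in size were Txndc9 (0.19, limma adjusted p 0.193) and Dnajb2 (0.13, 0.557) above 0. Txndc9 encodes a thioredoxin-like protein that binds CCT, and Dnajb2 a J-domain partner of Hsp70. On the other side were Unc45b (-0.17, 0.204), Nudcd3 (-0.14, 0.222) and Hsp90b1 (-0.11, 0.405). Unc45b encodes the chaperone of muscle myosin and Hsp90b1 the Hsp90 of the endoplasmic reticulum. For Unc45b the means were 187 ± 16.8 TPM in controls against 166 ± 8.43 TPM in cKO (SD, n = 4 each), and none of these 5 genes passed the test. In the exon 2 line Txndc9 (-0.14), Dnajb2 (-0.11) and Dnajc7 (-0.09) had the lowest values and Ptges3 (0.07), Ahsa2 (0.02) and Nudcd2 (0.0064) the highest, all with a limma adjusted p of 0.999.

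**Figure D3:**
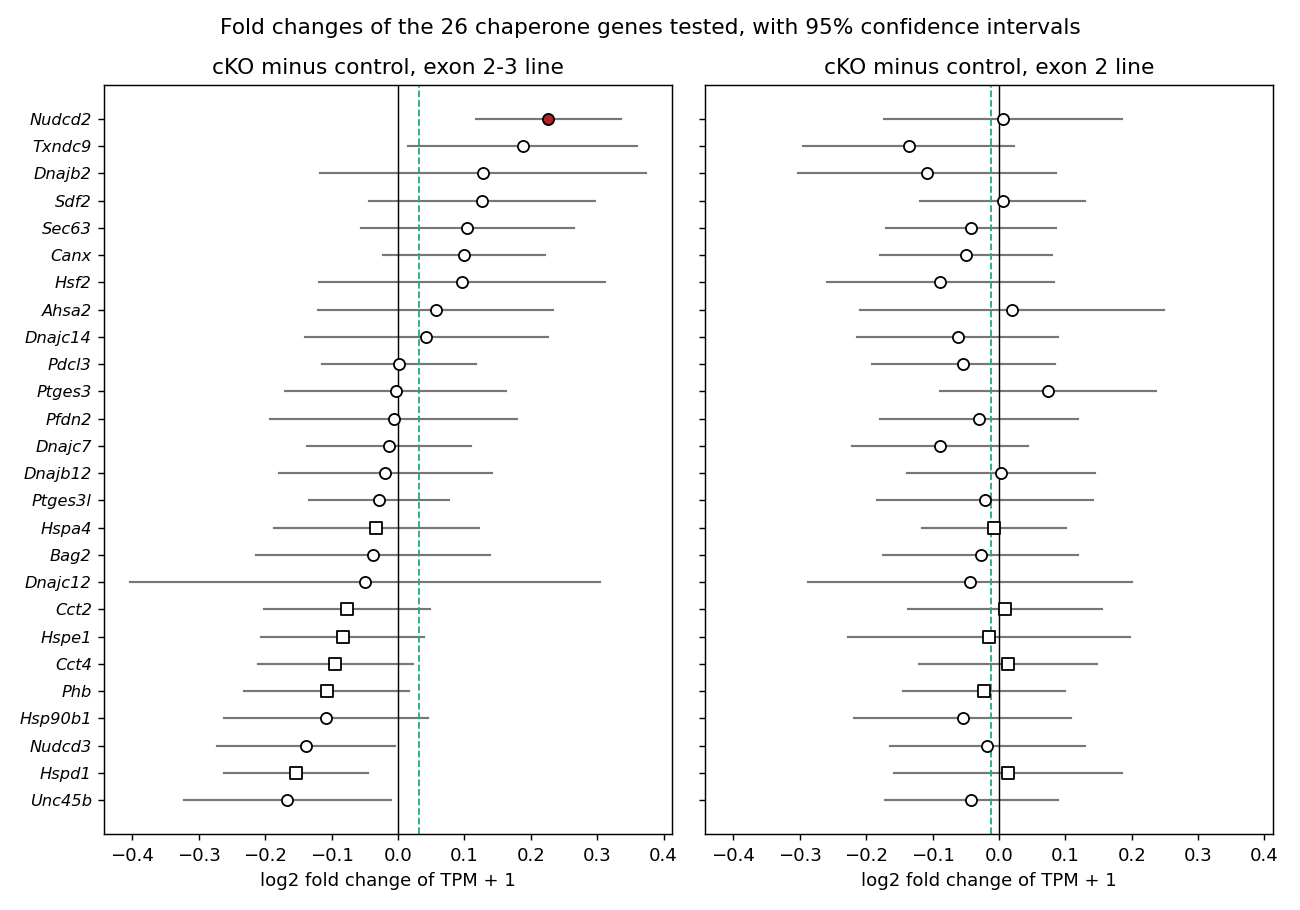
Log2 fold change of TPM + 1 (horizontal axes) of the 26 chaperone genes tested, cKO minus control in each line, with 95% confidence intervals, ordered by the exon 2-3 line. Squares are the 6 genes of the account and circles the other 20, filled where the limma adjusted p was under 0.05, and Nudcd2 in the exon 2-3 line is the one filled point.

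In the values as deposited, all of the 6 genes but Hspd1 differed most between the control groups, which involve no labelled knockout. The log2 fold change of Hspd1 was 0.06 there and -0.15 in the exon 2-3 knockout comparison. This order depended on the scaling. After median centring, Hspa4 was at -0.05 between the controls and -0.08 in the exon 2-3 knockout comparison. Cct2 was at 0.05 and -0.13, and Hspd1 at 0.24 and -0.20. As deposited, 4 of the 6 genes passed the threshold between the controls, against 52.6% of all genes, so this share is near the background. Hspe1, Phb and Cct4 were higher in the exon 2-3 controls, against 14.4% of all genes called higher, and Hspa4 was lower, against 38.1% called lower. The median of all genes was -0.14 in the values as deposited and 0.04 after median centring, a shift of the whole scale against which these values are to be read. The share of called genes that were higher was 27.5% in the values as deposited, 39.9% after quantile normalisation and 57.7% after median centring.

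Hspe1 differed most. Its 4 exon 2-3 controls lay between 361 and 383 TPM and its 4 exon 2 controls between 213 and 304 TPM, with no overlap (log2 fold change 0.58, SE 0.083, limma adjusted p 3.08e-05). Phb was next, at 204 ± 11.6 TPM against 165 ± 10.9 TPM (SD, n = 4 each; 0.30, limma adjusted p 0.000278), and Cct4 followed, at 240 ± 13.6 TPM against 206 ± 11.7 TPM (0.22, limma adjusted p 0.00424). In these 3 genes every exon 2-3 control was above every exon 2 control, as in 12.9% of all genes (45.5% were separate in either direction). All 3 kept their direction and call under quantile normalisation, under median centring and in the 16 fits with 1 library left out. The sizes moved with the scaling: Cct4 was at 0.09 (adjusted p 0.0411) after quantile normalisation and at 0.40 after median centring, and Phb was at 0.48 after median centring.

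Hspa4 was lower in the exon 2-3 controls, at 103 ± 9.54 TPM against 121 ± 3.33 TPM (-0.23, SE 0.059, limma adjusted p 0.00373), again with no overlap, as in 32.6% of all genes with the lower exon 2-3 controls. Its difference did not pass after median centring (-0.05, adjusted p 0.345). Cct2 had a log2 fold change of -0.13 (limma adjusted p 0.0857), which passed after quantile normalisation (-0.22, adjusted p 5.75e-05) and turned positive after median centring (0.05, adjusted p 0.488). Hspd1, at 0.06 (limma adjusted p 0.451), was called higher after median centring (0.24, adjusted p 0.0111) and lay at -0.04 after quantile normalisation.

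Sums of cell type markers differed between the control groups too. The 6 cardiomyocyte markers summed to 16997 to 18467 TPM in the exon 2-3 controls and to 12510 to 14607 TPM in the exon 2 controls. The 5 epicardial and mesenchymal markers summed to 256 to 291 TPM and to 385 to 548 TPM, and the 5 neuronal markers to 9.87 to 11.9 TPM and to 12.4 to 17.3 TPM. The neuronal sum is mostly 1 gene, Dlg4, with a mean of 11.1 TPM, as the other 4 averaged 0.349 to 0.459 TPM. Dlg4 had a log2 fold change of -0.17 between the controls, and the median of all genes was -0.14. None of these 3 sums overlapped between the control groups, while the erythroid, endothelial and leukocyte sums did. Single markers did not all follow their sums. By log2 fold change, Tnnt2 (0.74), Tnni1 (0.66) and Myl7 (0.25) lay above 0, and Pln (-0.08) and Hand1 (-0.11) below. Dcn (0.22) lay above 0, and Lum (-1.19), Col3a1 (-0.74) and Tcf21 (-0.23) below. Myl4 and Col1a1 are not given here. The part of these markers in the differences of the 6 genes was not tested.

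Transcript length moved with this comparison. Over the genes tested whose longest coding GENCODE transcript could be matched (98.3% of the protein-coding ones), length and the difference between the controls had a Spearman's rho of -0.622. This is a description across genes, which share their libraries and are not independent. For the knockout comparisons rho was 0.194 in the exon 2-3 line and 0.189 in the exon 2 line. Genes were placed in 4 classes of about equal size by length. The median difference between the controls was 0.08 in the class of the shortest transcripts (up to 2061 bases), -0.12 in the next, -0.24 in the one after and -0.39 in the class of the longest.

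Hspe1, with a transcript of 774 bases, had a difference above that of 95% of the shortest class. Phb (1799 bases) lay above 80.2% of that class and Cct2 (1959 bases) above 18.7% of it. In the next class, Cct4 (2484 bases) lay above 94.7% and Hspd1 (2423 bases) above 85% of the genes. Hspa4, with 4618 bases the longest of the 6, lay above 52.2% of its class, whose median was close to its own value. The part of transcript length in the differences of the 6 genes was not tested.

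**Figure D4:**
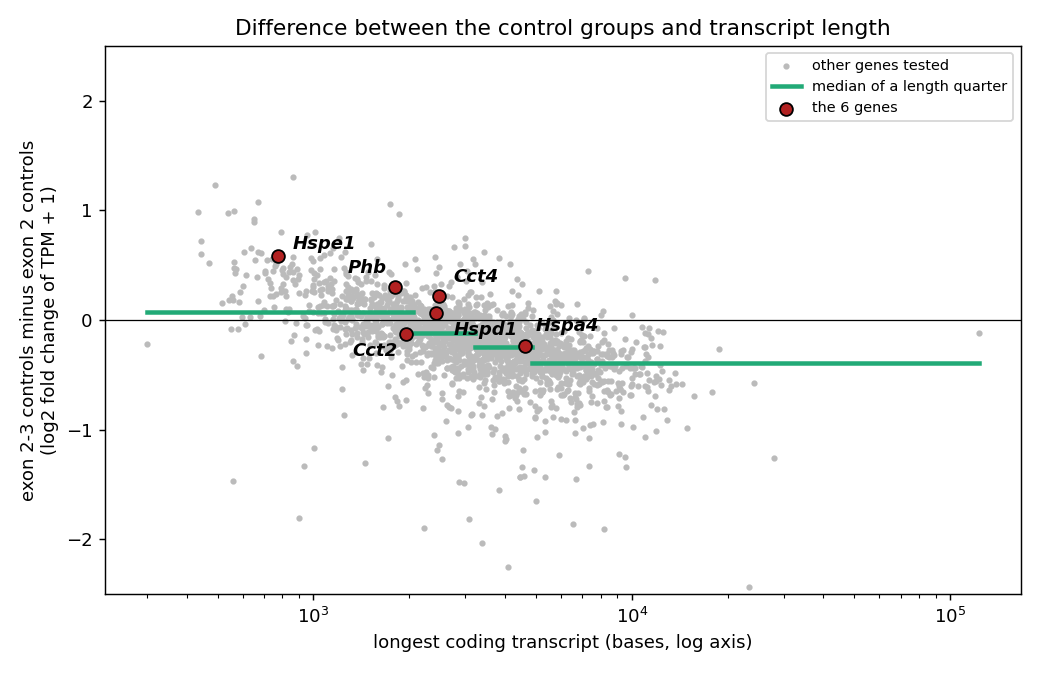
Log2 fold change of TPM + 1 between the exon 2-3 controls and the exon 2 controls (vertical axis) against the length of the longest coding transcript (horizontal log axis), 1 point per gene, with the median of each of 4 length classes as a bar. Hspe1 is the shortest of the 6 genes and the highest at 0.58, and Hspa4 is the longest and the lowest at -0.23.

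Because partners of one machine can be set against each other within a library, ratios of TPM were taken, as a description with no test. Hspd1 divided by Hspe1 was 1.66 ± 0.0675 in the exon 2-3 controls, 1.58 ± 0.0685 in the exon 2-3 cKO, 2.39 ± 0.204 in the exon 2 controls and 2.44 ± 0.268 in the exon 2 cKO (SD, n = 4 each). The 8 exon 2-3 libraries lay between 1.53 and 1.71 and the 8 exon 2 libraries between 2.10 and 2.73, while control and cKO overlapped in each line. Cct2 divided by Cct4 was 1.06 ± 0.0319 and 1.07 ± 0.0286 in the exon 2-3 line, and 1.35 ± 0.0558 and 1.35 ± 0.0236 in the exon 2 line. Both ratios separated the lines, which coincide with batch, and neither separated knockout from control. In level, 45.5% of all genes were separate between the control groups, and ratios of other gene pairs were not taken.

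**Figure D5:**
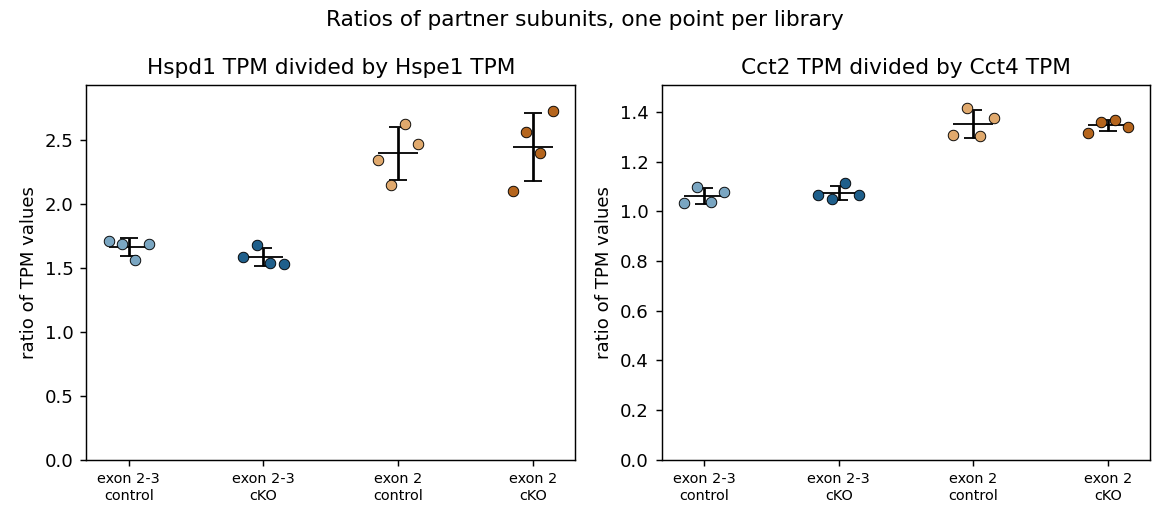
Ratio of TPM values (vertical axes, from 0) of Hspd1 to Hspe1 and of Cct2 to Cct4, with 1 point per library and the mean and SD as bars. The lines do not overlap in either ratio, and control and cKO overlap within each line.

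Within groups, several of the 6 genes varied together from library to library. Deviations from the group means over the 16 libraries correlated at 0.866 for Cct2 with Cct4, 0.812 for Cct2 with Hspa4 and 0.793 for Cct2 with Hspd1, and at 0.524 for Hspd1 with Hspe1. The lowest values were 0.267 for Cct4 with Phb and 0.269 for Hspe1 with Hspa4. Over all pairs of genes tested the median was 0.167. The libraries share their scaling, so these are descriptions with no p-value. Without the centring on groups, Hspe1 followed Phb (0.916) and ran against Hspa4 (-0.743), an order that holds the difference between the lines.

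The genes whose deviations were most like those of each member, by Pearson's r over the 16 libraries, were as follows. For Hspd1 they were Rpl7 (0.920), Glod4 (0.889) and Ltv1 (0.862), and for Hspe1 they were Psmb6 (0.937), Rps26 (0.928) and Gm9118 (0.901). Phb was matched by Guk1 (0.858), Gm16418 (0.814) and Copz2 (0.808). The closest to Cct2 were Eif4a1 (0.956), Psmc5 (0.947) and Cdk4 (0.945), and to Cct4 Wdr75 (0.914), Drg1 (0.913) and Tsr1 (0.911). Hspa4 was nearest to Ralb (0.942), Uap1 (0.931) and Anxa6 (0.917). By level, without centring, the closest were Prim1 for Hspd1 (0.850), Gm9118 and Psmb6 for Hspe1 (0.985 each), Ndufs7 for Phb (0.957), Utp6 for Cct2 (0.951), Drg1 for Cct4 (0.962) and Eef2 for Hspa4 (0.968). No member was among the 3 genes closest to another member by either measure.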

How the data were processed

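The authors deposited 1 table of TPM values with a column per library. Per the submitters' processing notes, reads were handled with tools that include Trim Galore 0.6.7, HISAT2 2.2.1, StringTie 2.2.1 and featureCounts on GRCm38. Which tool gave the TPM values, the annotation and the use of strand are not given in the sources used here. The 5921 complete rows used cover chromosomes 1 and 10 and part of 11, and genes elsewhere were not analysed here. For 5919 rows the coordinates equalled RefSeq on GRCm38.p6. Per the labels, samples had 30 to 70 M paired-end reads. TPM keeps no depth, so no counting interval is given. On library preparation the labels give both stranded mRNA libraries and depletion of ribosomal RNA.

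Tests used log2(TPM + 1), a scale that shrinks changes of low genes, and a minimum mean of 1 TPM. Each line was fitted on its 8 libraries with limma 3.58.1 (R 4.3.3, eBayes with an intensity trend), and the interaction and the control comparison on all 16. P-values were two-sided and adjusted by Benjamini-Hochberg over all 2620 genes. The labels call the 4 libraries of a group biological replicates, without litters. Transcript copies were searched with BLAST 2.17.0. The procedure was tested on simulated data, with noise drawn independently for each gene. The simulated differences were larger than those of the 6 genes in the knockout comparisons. That test therefore does not show how often differences of the size seen here would be found.

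The genes, lists and tests were chosen with earlier results of these data known. The rule for names takes the 6 genes, each list gene called in a line or in the interaction, the 3 list genes with the largest rise and fall in each line, and the 3 genes most like each of the 6. Alternatives were a pseudocount of 0.1, no filter, a minimum mean TPM of 5, quantile normalisation, median centring, no trend, a replicate block, one fit over all libraries, and leaving out each library.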

Additional observations from a re-analysis of the deposited data

Results flagged for a closer look

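One value stood apart from its group. Hspe1 in exon 2-3 cKO replicate 2 was at 320 TPM, and the other 3 libraries of the group lay between 364 and 368 TPM. Its gap to the nearest library was 0.905 of the range of the group, above Dixon's 95% critical value for 4 samples. Of 24 groups of 4 values examined for the 6 genes this was the one past that value, and chance alone gives about 1 in 20. In the same library the other members were also at the lowest level of the 4 exon 2-3 cKO libraries. Hspd1 was at 538, Cct2 at 228, Cct4 at 217, Phb at 181 and Hspa4 at 95.7 TPM. The 6 genes share the scaling of a library and several varied together within groups, so these values are not independent. Its erythroid markers summed to 5915 TPM, the second highest of the group after 11293 TPM in replicate 4. In replicate 4, Hspe1 (368 TPM), Cct2 (249 TPM), Cct4 (234 TPM) and Hspa4 (104 TPM) were at the highest level of the group. Hspd1 (562 TPM) and Phb (182 TPM) were not. The part of blood in these values was not tested.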

How the results depend on the processing

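Of the 6 genes, 2 (Hspd1 and Cct4) were called in the exon 2-3 line after median centring, against 0 in the values as deposited, and between 0 and 1 with 1 library left out. In the other comparisons the number of the 6 genes called stayed within 1.5 times its value. Over all genes, the exon 2-3 count of 176 became 87 without a filter, 311 after quantile normalisation and 343 after median centring, with 61.9% of calls higher in the values as deposited, 50.5% after quantile normalisation and 41.4% after median centring, and it ran from 70 to 190 with 1 library left out, falling to between 70 and 100 without control replicate 1 or 2 or any one cKO library. The interaction count of 62 became 41, 133 and 127 under the same 3 settings, with 67.7% higher as deposited and 53.4% and 52% higher under the 2 scalings, and ran from 36 to 84, lowest without exon 2 cKO replicate 2 (36) or 4 (38), exon 2 control replicate 4 (37) or exon 2-3 cKO replicate 3 (41). The exon 2 count of 2 became 4 in one fit over all libraries and ran from 2 to 4, with 4 without control replicate 3. Directions turned in the exon 2 line after quantile normalisation for Hspd1 (-0.0057), Hspa4 (0.017) and Phb (0.0023), and between the controls for Hspd1 after quantile normalisation (-0.036) and Cct2 after median centring (0.050); the cause was not tested. With 1 library left out, log2 fold changes in the exon 2-3 line ran from -0.18 to -0.13 for Hspd1, -0.10 to -0.035 for Hspe1, -0.10 to -0.000019 for Hspa4 (without control replicate 4), -0.12 to -0.050 for Cct2, -0.13 to -0.063 for Cct4 and -0.14 to -0.079 for Phb, and median centring moved those of Hspa4, Cct2 and Hspe1 to -0.081, -0.13 and -0.13, and quantile normalisation that of Cct2 to -0.041. In the exon 2 line they ran from -0.026 to 0.079 for Hspd1, -0.091 to 0.078 for Hspe1, -0.026 to 0.018 for Hspa4, -0.029 to 0.047 for Cct2, -0.022 to 0.044 for Cct4 and -0.051 to 0.012 for Phb. The interaction ran from -0.16 to 0.0076 for Hspe1 and from -0.092 to 0.0078 for Hspa4. With the replicate number as a block, the number of genes called was 149, 2 and 68 in the exon 2-3 line, the exon 2 line and the interaction, none of them one of the 6, and Nudcd2 had an adjusted p of 0.0663. Deviations of same-numbered libraries correlated between -0.029 and 0.21, over 0.1 in 3 of 8 pairs, and 9 of 16 libraries correlated best with their own number. In the exon 2 line every same-numbered pair lay above 0, between 0.064 and 0.20, while the exon 2-3 line held the lowest and the highest value. Every exon 2 library except control replicate 4 correlated best with its own number. In the exon 2-3 line only control replicate 4 and cKO replicate 4 did. The labels name no pairs, so the main tests did not use the numbers. These correlations do not exclude pairs, least of all in the exon 2 line. The labels give depth only as a range, 30 to 70 M reads, and not per library, so differences of a few percent were not set against counting error.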
